A study of Mus musculus with 8 samples.

Results

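Of the 47434 annotated genes in the deposited counts, 33 were taken as a module of glucose uptake, glycolysis, pyruvate handling and hypoxia control. They were named gene by gene from pathway knowledge, with earlier results of these data known. Their RNA was compared in Hepa 1-6, a mouse liver cancer line, between 4 libraries of G9a knockout cells and 4 libraries of wild-type (WT) cells. G9a, encoded by Ehmt2, is a histone H3 lysine methyltransferase linked to gene silencing. No treatment, time point or second edit is named for either group, and whether the knockout was a single clone or a pool is not stated in the labels. Nor do they say that the libraries of a group were grown separately, so each p-value refers to the scatter among these libraries, which could be technical.

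Glycolysis splits glucose into pyruvate in a fixed order of enzymes, many of which exist as isoenzymes encoded by separate genes. Pyruvate is either reduced to lactate and exported or admitted to the mitochondrion by the pyruvate dehydrogenase complex, which the pyruvate dehydrogenase kinases switch off. When oxygen is scarce, the transcription factor HIF-1 escapes hydroxylation by the EGLN oxygen sensors and raises many of these genes. Liver tumours are known for a high glycolytic flux and for replacing the hepatocyte's glucokinase and aldolase B by other isoenzymes.

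The targeted gene was measured first. Ehmt2 (chr17:34898469-34914052, GRCm38) stood at 116.7, 116.7, 119.8 and 118.8 CPM in the knockout against 345.4, 307.1, 297.6 and 306.6 CPM in the WT, where CPM is counts scaled to a library total of 1000000 after TMM normalization. It was lower in 4 of 4 knockout libraries, and fell by 1.41 on the log2 scale, so that part of its RNA remained. Library totals ran from 58256100 to 75025236 counts, so the 3 counts that a count of 0 allows correspond to 0.0401 to 0.0516 CPM. Of the hepatocyte markers, Alb, Ttr and Hnf4a had a count of 0 in every library, and Apoa1 and Trf were too low to test. The epithelial keratin Krt8 stood at 800.7 CPM in the knockout and 721.1 CPM in the WT and was called higher. Krt18, at 475.1 and 489.1 CPM, and Apoa2, at 0.885 and 0.996 CPM, were not called. Afp, the fetal liver protein also made by liver tumours, rose from 5.769 ± 0.567 to 133.3 ± 11.9 CPM (SD, n = 4), the widest change on that list. The summed level of 7 fibroblast markers was 424 to 454 CPM in the knockout and 107 to 117 CPM in the WT, nearly all of it Col3a1, and 3 of the 5 that were tested rose. Pdgfra, at 1.129 CPM in the knockout and 1.713 CPM in the WT, and Pdgfrb, at 0.0547 and 0.186 CPM, were not called. Lum was at 0 throughout, and Dcn had 5 counts in all knockout libraries and 0 in the WT. The 4 leukocyte markers summed to at most 9.6 CPM, with Adgre1 at 0, and the 4 endothelial markers to at most 5.82 CPM. Ptprc, at 1.081 CPM in the knockout and 0.437 CPM in the WT, was called higher without overlap. Cd68 and Csf1r were not called. Cdh5, at 4.318 and 2.278 CPM, was also called higher without overlap. Pecam1 and Kdr were not called, and Tek was too low to test. The part that these differences play in the results below was not tested. Fewer cells of a type and less RNA per cell cannot be told apart in bulk RNA.

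Most of the module changed, in both directions and by small amounts. Of 33 genes, 32 were tested and 10 rose, 14 fell and 8 were not called at an adjusted p of 0.05 by edgeR's quasi-likelihood test (Benjamini-Hochberg over all 15840 genes). With library sizes alone as the scaling, 13 were higher and 9 lower, so the balance of directions rests on the scaling. The share called, 75.0%, has to be read against a background of 47.2% of all genes tested, with 23.6% higher and 23.6% lower. It also has to be read against expression level: among all genes averaging 50 CPM or more, 62.4% were called, 20.6% higher and 41.8% lower. Of the 23 members at that level, 4 rose and 12 fell, which is 69.6% called. The groups did not overlap for 22 of 32 members, against 43.9% of all genes. At 50 CPM or more they did not overlap for 15 of 23 members and for 2506 of all 4452 genes. The median log2 fold change was -0.12 over the members, 0.004 over all genes tested and -0.09 over all genes with at least 50 CPM. A called log2 change of 0.5 or more in size was found in 6 of 32 members, against 21.8% of all genes, so large changes were no more common here than in the background. Of the 6, Eno2, Car9, Pdk2 and Aldoc rose, and Slc2a3 and Ak4 fell.

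**Figure D1:**
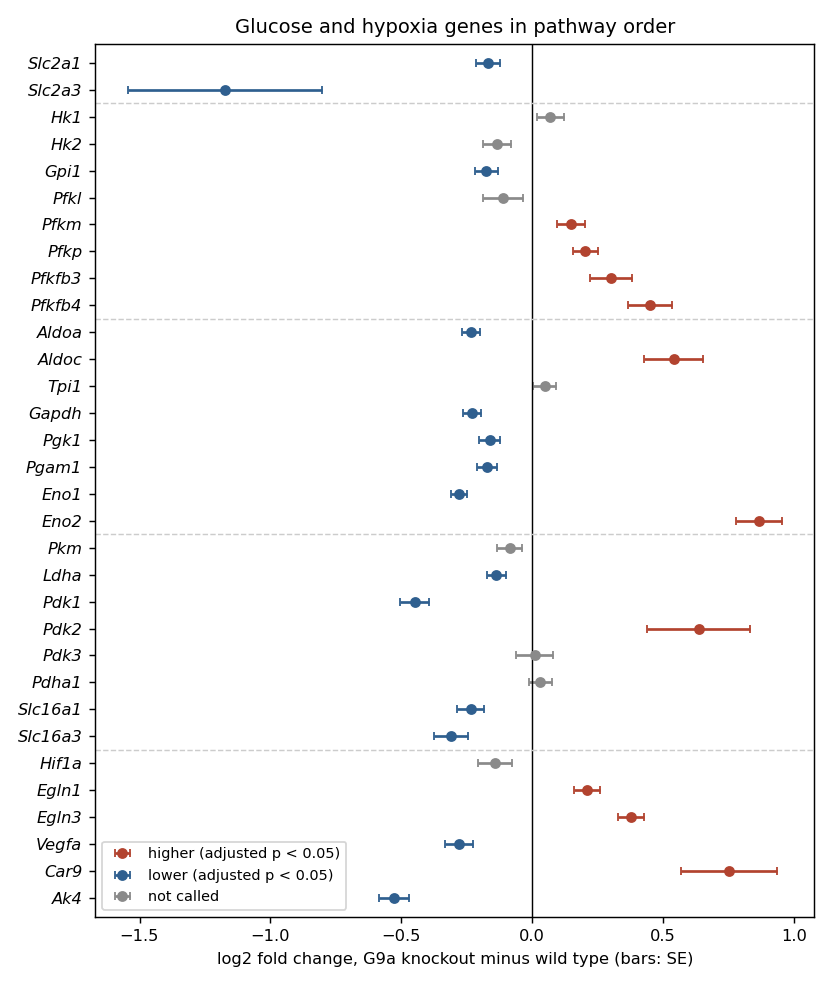
Log2 fold change of each of the 32 tested genes (x axis, knockout minus WT, bars are standard errors, 4 libraries a group), listed in pathway order from glucose uptake at the top, with dashed lines between the roles. Most main-pathway enzymes from Aldoa to Ldha sit close to 0 on the lower side, with Tpi1 just above 0, and Eno2, Car9 and Pdk2 reach farthest to the higher side.

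Glucose enters through facilitated transporters, and both members of this role fell. Slc2a1 (chr4:119108711-119137983), which encodes the widespread transporter GLUT1, stood at 231.7, 223.4, 228.5 and 232.5 CPM in the knockout and at 272.1, 255.5, 239.1 and 263.3 CPM in the WT. Every knockout library was below every WT library, by -0.17 ± 0.047 on the log2 scale (SE, n = 4 a group; edgeR adjusted p = 0.00871). With library sizes alone as the scaling its change was -0.09 (adjusted p = 0.14), and with upper quartile factors -0.11 (adjusted p = 0.068).

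Slc2a3 (chr6:122727809-122801640), which encodes the high-affinity transporter GLUT3, was nearly silent. It had 0.4289, 0.2022, 0.4036 and 0.2383 CPM in the knockout against 0.7504, 0.5448, 0.8841 and 0.6984 CPM in the WT, from 88 counts in all knockout libraries and 187 in all WT libraries. The groups did not overlap, and the change was -1.17 ± 0.371 (edgeR adjusted p = 0.0188). Without WT replicate 3 the call was lost (-1.06, adjusted p = 0.0578). On a per-length scale Slc2a3 supplied 0.0741% ± 0.0295 of the summed Slc2a1 and Slc2a3 level in the knockout and 0.165% ± 0.0276 in the WT (SD, n = 4), so nearly all transporter RNA of this pair was Slc2a1.

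From hexokinase to fructose bisphosphate, 4 of 8 genes rose and 1 fell. Hexokinases trap glucose as its phosphate. Hk2 (chr6:82725025-82774454), the form typical of tumours, had 131.2, 132.1, 120.8 and 134.5 CPM in the knockout and 153.0, 140.8, 134.2 and 140.9 CPM in the WT, with an overlap of 1 knockout and 1 WT library. Its change of -0.13 ± 0.053 was just outside the threshold (edgeR adjusted p = 0.0524), and it entered the calls with a replicate block (adjusted p = 0.046) and without WT replicate 3 (-0.16, adjusted p = 0.0333). The ubiquitous Hk1 was at 187.4 ± 11.1 CPM in the knockout and 178.6 ± 7.597 CPM in the WT (SD, n = 4) and was not called. Gpi1, which isomerizes glucose phosphate to fructose phosphate, fell from 542.7 ± 26.2 to 480.8 ± 11.2 CPM. Its fall was not called with library sizes alone (edgeR adjusted p = 0.0955) or with the median change of its neighbours within 5 Mb taken out (edgeR adjusted p = 0.101), and Hk1 was called higher in both settings (0.15 and 0.14).

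Phosphofructokinase commits the sugar to glycolysis, and its isoforms did not move alike. The platelet form Pfkp rose from 215.4 ± 11.9 to 248.1 ± 5.64 CPM without overlap (0.20 ± 0.047), while the muscle form Pfkm went from 90.14 ± 5.18 to 99.86 ± 3.99 CPM with overlap (0.15 ± 0.053, edgeR adjusted p = 0.0349). Pfkm lost its call when any one of 5 libraries was left out, which gave changes between 0.12 and 0.16: knockout replicates 3 and 4 and WT replicates 2, 3 and 4. The liver form Pfkl was at 174.8 ± 5.11 CPM in the knockout and 188.9 ± 25.0 CPM in the WT and was not called. The bifunctional enzymes that make and remove the allosteric activator of phosphofructokinase both rose. Pfkfb3, whose product favours synthesis of the activator, went from 22.04 ± 1.36 to 27.17 ± 2.81 CPM, with overlap. Pfkfb4 went from 9.958 ± 0.815 to 13.62 ± 0.624 CPM (0.45 ± 0.084, edgeR adjusted p = 0.000617, no overlap).

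Between aldolase and enolase the abundant enzymes except Tpi1 fell under the main scaling, and the scarce isoenzymes rose: 5 of 8 genes were lower, 2 higher and 1 not called. Gapdh (chr6:125161715-125166467), the dehydrogenase often used as a loading reference, had 2500, 2480, 2655 and 2605 CPM in the knockout and 3032, 2968, 2998 and 3009 CPM in the WT. No knockout library reached the lowest WT library, and the change was -0.23 ± 0.033 (edgeR adjusted p = 7.97e-05). A search of the annotated transcripts found 153 genes nearly identical to Gapdh, and they held 29.9% of the combined counts of Gapdh and these copies, so its absolute level is uncertain. With the counts of the copies added, the call and its direction were as before, and the same held for every other member tested.

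Eno1, the ubiquitous enolase and the most abundant member per length, fell from 5469 ± 64.2 to 4510 ± 98.5 CPM, a change of -0.28 ± 0.030 (edgeR adjusted p = 4.94e-06). Aldoa, which cleaves fructose bisphosphate, fell from 1117 ± 20.2 to 950.8 ± 22.7 CPM (-0.23 ± 0.035). The kinase Pgk1 and the mutase Pgam1 fell by 0.16 and 0.17 on the log2 scale, and in both the groups did not overlap. Tpi1, which interconverts the triose phosphates, was not called at 565.4 ± 26.0 against 546.5 ± 17.3 CPM. With library sizes alone, the falls of Pgk1 (adjusted p = 0.0964) and Pgam1 (adjusted p = 0.0611) were no longer called. That of Pgk1 was also not called with upper quartile factors (adjusted p = 0.0521) or with the median change of its neighbours taken out (adjusted p = 0.0854).

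Aldoc (chr11:78322968-78327781), the brain-type aldolase, had 8.553, 9.690, 10.26 and 8.788 CPM in the knockout against 6.313, 6.462, 5.406 and 7.445 CPM in the WT. The lowest knockout library was above the highest WT library, and the change was 0.54 ± 0.113 (edgeR adjusted p = 0.00138).

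Eno2 (chr6:124760053-124769673), the neuronal-type enolase and a known HIF target, showed the largest rise among the members. Its 4 knockout libraries had 12.69, 12.32, 11.48 and 11.91 CPM and its 4 WT libraries 7.048, 6.583, 6.001 and 6.937 CPM, a 1.82-fold difference (log2 0.87 ± 0.088, edgeR adjusted p = 3.08e-06). Eno2 was also the only member called when the test asked for a change beyond 1.5-fold, a test that called 10.5% of all genes.

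**Figure D2:**
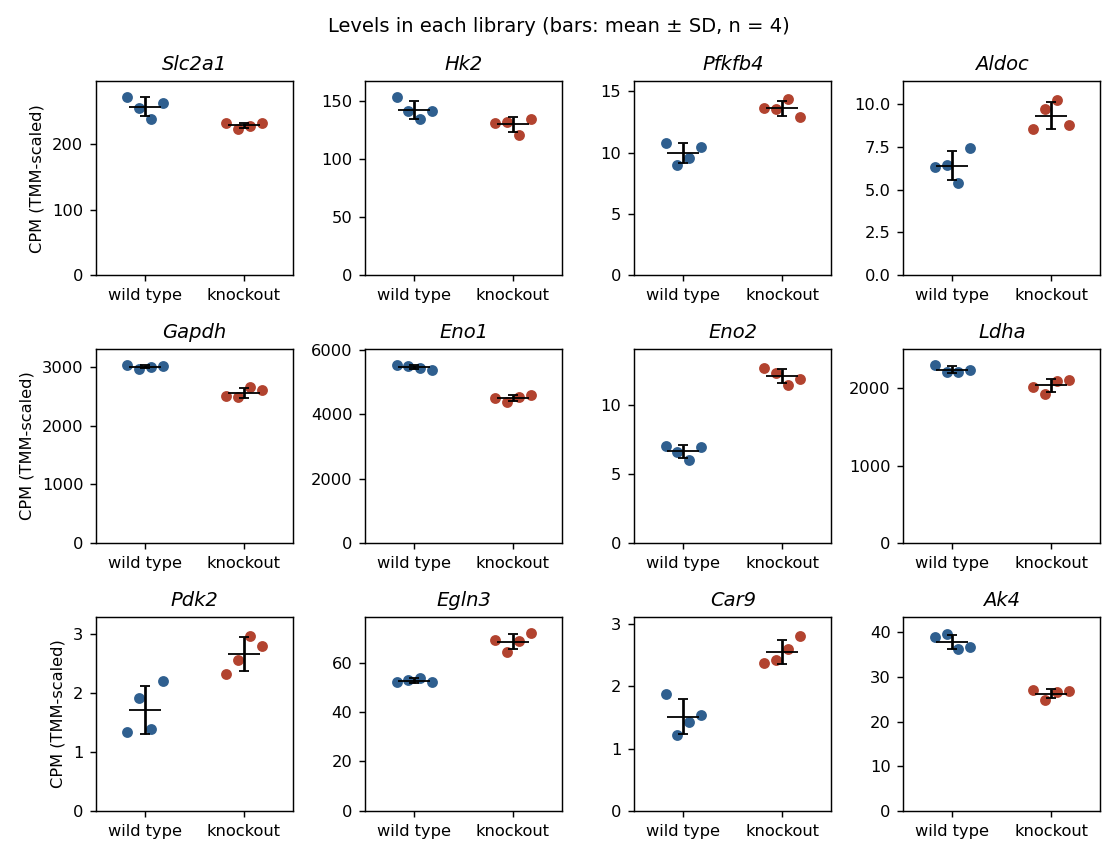
Level of 12 members in each library (y axis, TMM-scaled CPM starting at 0, each panel with its own scale; points are libraries, bars are mean ± SD of 4). The knockout points lie wholly below the WT points for Slc2a1, Gapdh, Eno1, Ldha and Ak4, wholly above for Pfkfb4, Aldoc, Eno2, Pdk2, Egln3 and Car9, and overlap for Hk2.

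Among the pyruvate and lactate genes, 4 of the 8 tested fell, 1 rose and 3 were not called. Pkm (chr9:59656368-59679375), the pyruvate kinase gene, had 3711, 3646, 3833 and 4030 CPM in the knockout and 4417, 3856, 3848 and 4022 CPM in the WT. The groups overlapped, and the change of -0.09 ± 0.048 was not called (edgeR adjusted p = 0.165). Ldha (chr7:46841475-46855627), which reduces pyruvate to lactate, had 2020, 1925, 2098 and 2100 CPM against 2303, 2206, 2205 and 2232 CPM. Each knockout value was under each WT value, with a change of -0.14 ± 0.037 (edgeR adjusted p = 0.00868). This fall was not called with library sizes alone (-0.06, adjusted p = 0.227), with upper quartile factors (-0.08, adjusted p = 0.112) or with a filter at a mean of 5 CPM (-0.10, adjusted p = 0.0514). Ldhb, the heart-type subunit that favours the reverse reaction, had a count of 0 in all 8 libraries. The lactate exporters Slc16a1 (MCT1) and Slc16a3 (MCT4) both fell, by 0.23 and 0.31 on the log2 scale, without overlap.

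The kinases that switch off pyruvate dehydrogenase went 3 ways. Pdk1 (chr2:71873224-71903858), the HIF-induced form, fell from 58.42 ± 1.29 to 42.84 ± 2.76 CPM (-0.45 ± 0.055, edgeR adjusted p = 1.91e-05). Its 48 neighbours within 5 Mb and averaging 5 CPM or more had a median change of -0.53, and with that local shift taken out Pdk1 was at 0.09 (adjusted p = 0.232), so its fall was no larger than that of the genes around it. Pdk2 (chr11:95026258-95041354) had 2.314, 2.556, 2.959 and 2.789 CPM in the knockout and 1.338, 1.907, 1.391 and 2.191 CPM in the WT. The groups did not overlap, and the rise of 0.64 ± 0.198 was called (edgeR adjusted p = 0.0174), but not without WT replicate 3 (0.55, adjusted p = 0.0511). Pdk3 was at 49.07 ± 3.12 and 48.72 ± 4.39 CPM. Pdha1, the catalytic subunit that these kinases phosphorylate, was at 193.4 ± 6.85 and 189.1 ± 4.73 CPM, and neither was called.

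Of the 6 oxygen-sensing genes and HIF targets, 3 rose, 2 fell and 1 was not called. Hif1a (chr12:73901375-73947530), the oxygen-regulated subunit, had 225.2, 212.5, 212.6 and 208.6 CPM in the knockout and 206.4, 253.2, 258.2 and 229.9 CPM in the WT. The lowest value of all was a WT library, replicate 1. The change was -0.14 ± 0.065 (edgeR adjusted p = 0.0897), and without that library it was -0.20 and called (adjusted p = 0.00437). Both oxygen sensors rose: Egln1 from 62.31 ± 1.44 to 72.11 ± 3.39 CPM and Egln3 from 52.69 ± 0.878 to 68.49 ± 3.03 CPM, in each case without overlap. The change of Egln3, itself a hypoxia-induced gene, was 0.38 ± 0.049 (edgeR adjusted p = 2.74e-05).

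The 3 remaining HIF targets went in different directions. Vegfa (chr17:46016993-46032369), the angiogenic growth factor, had 90.02, 92.21, 89.72 and 93.89 CPM in the knockout against 117.9, 104.8, 104.7 and 116.8 CPM in the WT, a fall of 0.28 on the log2 scale with no overlap (edgeR adjusted p = 0.000637). Car9 (chr4:43506966-43513729), the carbonic anhydrase used as a hypoxia marker, was scarce and higher: 2.366, 2.426, 2.590 and 2.803 CPM against 1.876, 1.211, 1.420 and 1.540 CPM. Its groups did not overlap either, and the change was 0.75 ± 0.183 (edgeR adjusted p = 0.00408). Ak4 (chr4:101419277-101466995), a mitochondrial adenylate kinase, had 27.05, 24.74, 26.60 and 26.77 CPM in the knockout and 38.99, 39.56, 36.31 and 36.79 CPM in the WT. It fell by 0.53 on the log2 scale (SE 0.058, edgeR adjusted p = 6.18e-06), with a wide gap between the groups.

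Most of the abundant members fell under the main scaling, and those that rose were less abundant. On the per-length scale of TPM, 10 members had a mean level of at least 200 TPM: the enzymes Gpi1, Aldoa, Tpi1, Gapdh, Pgk1, Pgam1, Eno1, Pkm and Ldha and the exporter Slc16a1. Of these, 8 fell and 0 rose, or 4 fell and 1 rose (Tpi1) with library sizes alone. The 2 that were not called were Tpi1 and Pkm. Of all 752 genes at this level, 44.9% fell and 18.5% rose. Spearman's rho between mean TPM and log2 fold change was -0.445 over the 32 members and -0.219 over all 15840 genes, given as a description because the genes share libraries and scaling. Summed, the members took 1.97% ± 0.0224 of all TPM in the knockout and 2.12% ± 0.0532 in the WT (SD, n = 4), with ranges of 1.95% to 1.99% and 2.07% to 2.19% that did not overlap. The limit of 200 TPM was chosen after the values were seen.

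**Figure D3:**
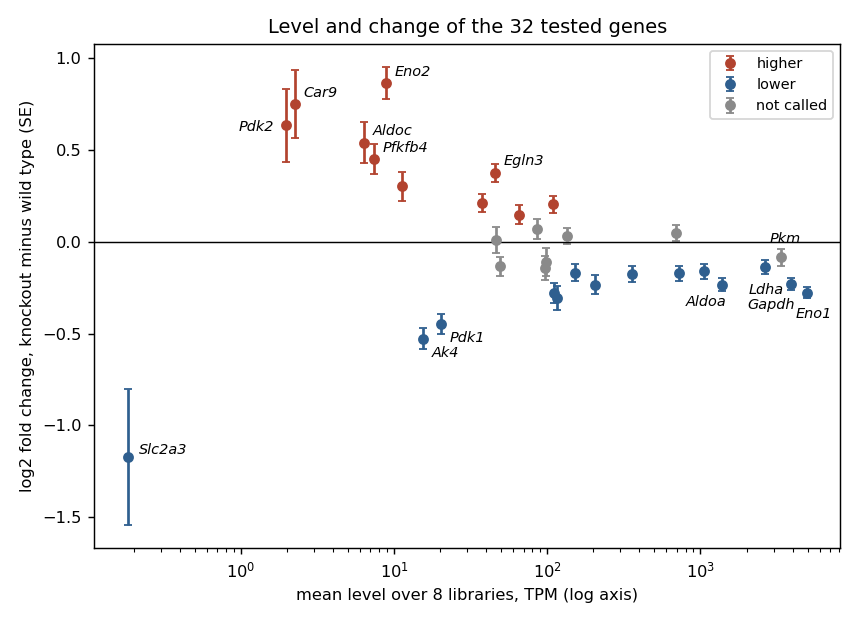
Mean level over 8 libraries (x axis, TPM on a log scale) against the log2 fold change (y axis, knockout minus WT, bars are standard errors) for the 32 tested members. The most abundant genes, on the right, lie below 0 or are not called, and the genes that rose are at lower levels.

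Isoenzyme shares, which no scaling of the libraries can move, were compared per length within each family. Of 12 shares tested, 9 differed with no overlap of the 4 and 4 libraries (exact permutation test, two-sided, p = 0.0286 each, the smallest this design allows, and 0.0381 after Benjamini-Hochberg adjustment over the 12). Among all genes tested, 43.9% had CPM without overlap, and no such rate was computed for shares in other gene families. Eno2 made up 0.246% ± 0.0118 of Eno1 plus Eno2 in the knockout and 0.120% ± 0.0112 in the WT (SD, n = 4). Aldoc made up 0.595% ± 0.0725 against 0.334% ± 0.0449 of Aldoa plus Aldoc. In both pairs the abundant form still held nearly all of the RNA.

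Larger families moved by a few percentage points. Hk2 was 35.03% ± 1.10 of the 2 hexokinases in the knockout and 38.2% ± 0.534 in the WT. Pfkl dropped from 38.3% ± 1.90 to 33.7% ± 0.533 of the phosphofructokinases while Pfkp went from 38.3% ± 1.57 to 41.5% ± 0.790. Pfkp was the leading form in every knockout library and in 3 of 4 WT libraries, all but WT replicate 1. Among the pyruvate dehydrogenase kinases Pdk3 was the leading form in all libraries, with 70.2% ± 1.31 in the knockout and 64.9% ± 1.64 in the WT. Pdk1 held 26.1% ± 1.07 against 32.97% ± 1.62 and Pdk2 3.65% ± 0.461 against 2.14% ± 0.485. The local shift around Pdk1, a median log2 change of -0.53, was not taken out of these shares. The shares of Pfkm (p = 0.0857), Pfkfb4 (p = 0.114) and Slc16a3 (p = 0.80) overlapped between the groups and were not called by the exact permutation test. Shares within a family depend on each other and are not separate findings.

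**Figure D4:**
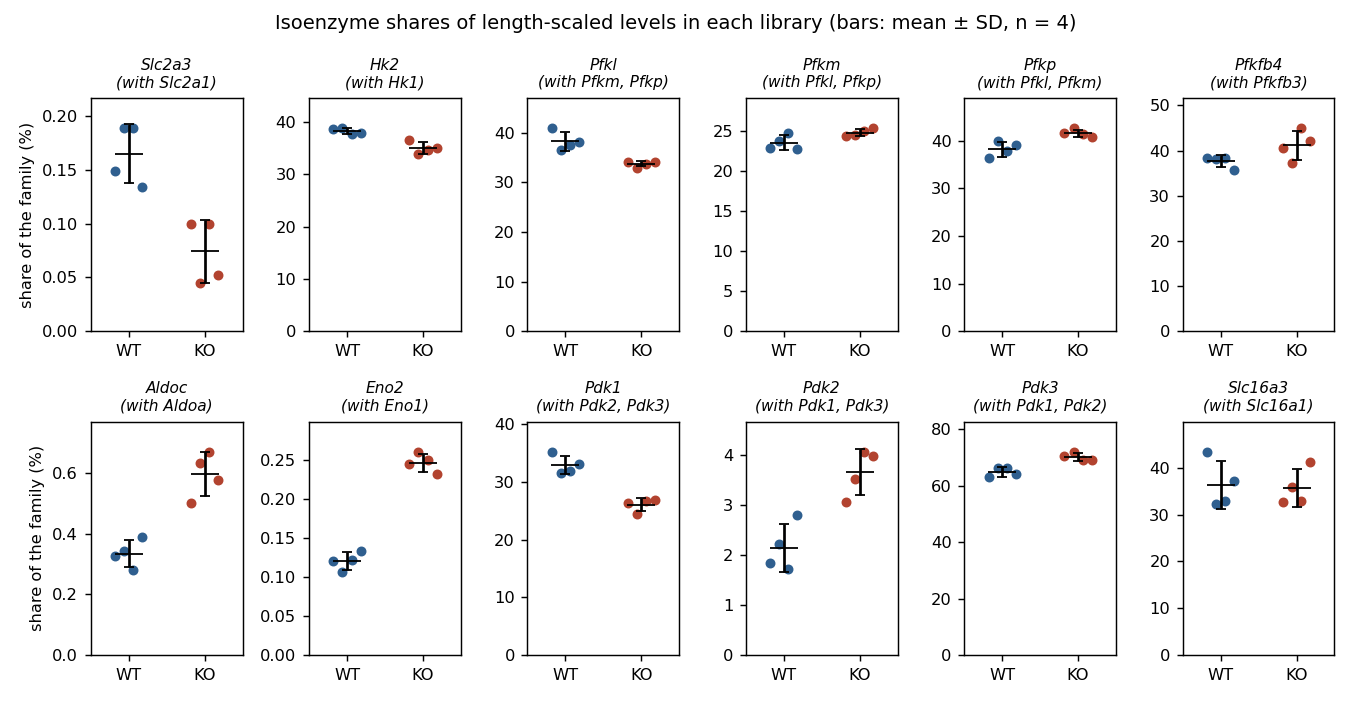
Share of each named isoenzyme in the summed length-scaled level of its family (y axis, percent from 0, own scale per panel; points are libraries, bars are mean ± SD of 4), with the other family members in brackets. WT and knockout (KO) points are separate in 9 panels and overlap for Pfkm, Pfkfb4 and Slc16a3.

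Pkm makes 2 forms of pyruvate kinase by choosing one of a pair of exons that exclude each other: the M1 form of muscle and brain, always active, and the M2 form of growing and tumour cells, which is open to regulation. The table listed one main transcript for each. The exons are shown because they are the coding difference between the transcripts. Both are 167 bases long and lie on the plus strand of chromosome 9 (GRCm38, GENCODE), at chr9:59675029-59675195 in Pkm-202 and at chr9:59675568-59675734 in Pkm-201. Capitals mark the 64 bases at which they differ.
Pkm-202 (M1 type): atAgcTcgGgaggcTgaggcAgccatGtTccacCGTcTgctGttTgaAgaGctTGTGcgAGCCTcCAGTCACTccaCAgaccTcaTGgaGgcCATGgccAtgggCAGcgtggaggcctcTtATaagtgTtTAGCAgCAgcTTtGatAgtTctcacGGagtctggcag
Pkm-201 (M2 type): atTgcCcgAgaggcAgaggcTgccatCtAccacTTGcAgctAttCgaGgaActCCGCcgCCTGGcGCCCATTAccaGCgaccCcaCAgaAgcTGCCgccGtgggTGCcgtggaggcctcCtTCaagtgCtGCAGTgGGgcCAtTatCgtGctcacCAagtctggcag

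Pkm-201 held most counts in every library. Pkm-202 was assigned 73337, 69456, 62554 and 81989 counts in the knockout and 44283, 35519, 38212 and 38371 in the WT. Pkm-201 was assigned 212182, 183047, 165370 and 205510 in the knockout and 226470, 219255, 227303 and 214998 in the WT. The share of Pkm-202 in all Pkm counts was therefore 25.69%, 27.51%, 27.45% and 28.52% in the knockout against 16.36%, 13.94%, 14.39% and 15.14% in the WT, with a wide gap between the groups. A share without overlap was found for 6.81% of the 14437 transcripts so compared.

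Whether this split passes a test depends on the test. The first one run, edgeR's diffSpliceDGE over 29823 transcripts, called 0.141% of them and no transcript of a member. It gave Pkm-202 a log2 difference of 0.86 from the gene as a whole (unadjusted p = 0.00351, adjusted p = 0.461), and Pkm-201 one of -0.23. The log2 odds below set a transcript against the rest of its gene, so the sizes from the 2 tests are on different scales. A second test, limma on the log2 odds of each transcript within its gene, was chosen after that outcome and after the Pkm counts had been seen. It called 0.0554% of 14437 transcripts, among them both of Pkm (log2 odds of Pkm-202 1.10 ± 0.112, adjusted p = 0.0296). Without any single library Pkm-202 was not called (limma adjusted p 0.0549 to 0.150). For Pkm-201 the limma adjusted p then ran from 0.0382 to 0.14, so its call was lost in some cases but not in all. Checked on counts made with known answers, both tests missed most changes in transcript use. The 2 transcripts also differ at their ends, since Pkm-202 starts 205 bases later and stops 186 bases earlier, and the table does not show which reads set the split. It is therefore given as a difference in assigned counts, not as a measured exon choice.

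**Figure D5:**
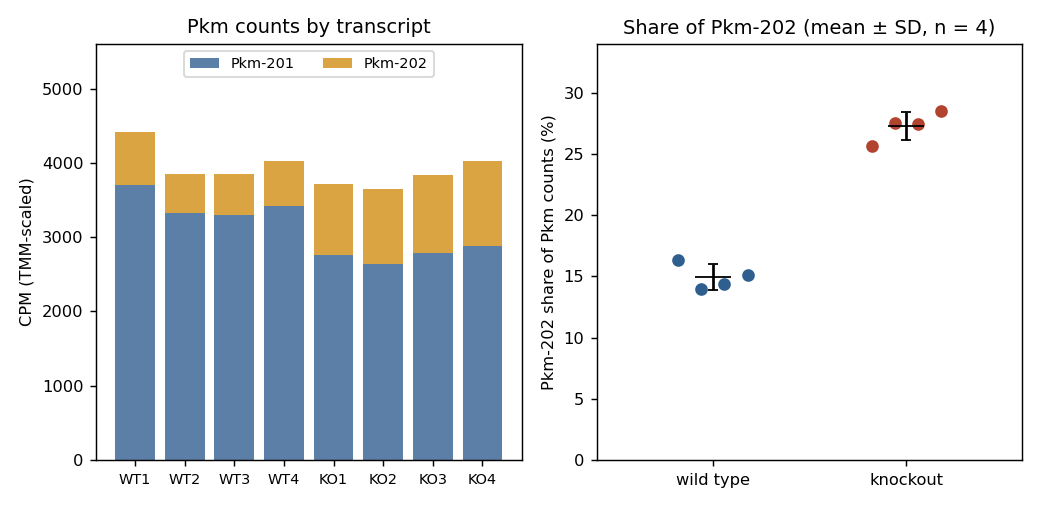
Left, counts assigned to the 2 main Pkm transcripts in each library (y axis, TMM-scaled CPM, stacked bars from 0, WT1 to WT4 and KO1 to KO4 are the libraries). Right, share of Pkm-202 in the Pkm counts (percent, points are libraries, bars are mean ± SD of 4), at 13.94% to 16.36% in the WT and 25.69% to 28.52% in the knockout.

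Other members with several transcripts gave no call by either test. In Aldoa, the share of Aldoa-203 was 16.4% ± 2.01 in the knockout and 7.23% ± 1.26 in the WT and that of Aldoa-202 8.93% ± 4.11 against 20.8% ± 4.97 (SD, n = 4), both without overlap. Their adjusted p by limma was 0.104 and 0.338. By diffSpliceDGE it was 0.136 and 0.1 (unadjusted p = 0.00038 and 0.000205), in both cases lower than for Pkm-202 in that test. In Eno2, the retained-intron transcripts Eno2-203 and Eno2-212 were assigned 28.4% ± 18.8 and 15.7% ± 5.45 of the counts in the knockout. In the WT they were assigned 32.2% ± 17.7 and 15.3% ± 6.20. The level and share of Eno2 given above include them, and the call of Eno2 was unchanged with coding transcripts alone. For Vegfa the assignment was unstable within the WT, where Vegfa-202 took 38.66%, 78.13%, 30.73% and 75.60% of its counts, so its per-length level is uncertain while its summed count is not affected.

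Promoter sequence was examined because HIF-1 binds a short core, ACGTG or GCGTG, and because members of the same pathway moved in both directions. A RefSeq promoter window (GRCm38.p6) was found for 32 of 33 members. Where a member had several, that with its start nearest the start of the most used transcript was taken. For Eno2 these starts lay 1336 bases apart, and 208 bases of the Pkm window lay in annotated exons. In the 250 bases before the start, on either strand, 27 of these 32 windows (84.4%) held ACGTG or GCGTG. The core was in 38.6% of all 32817 promoter windows and in 60.7% of those of genes averaging 50 CPM or more. Both backgrounds count every window of a gene, whereas the members have a chosen window each, so these are unlike sets. The group of 50 CPM or more was chosen after the data were seen. Median GC content over every window was 61.0% in the members, 62.0% in that group and 52.4% in all. The core was in 9 of 10 windows of members that rose, 11 of 13 of those that fell and 7 of 9 of the others, Ldhb included. It was absent from the windows of Eno2, which rose, of Gpi1 and Vegfa, which fell, and of Tpi1 and Pkm. A match describes letters and is no evidence of binding.

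Windows of 2 members that fell and 2 that rose, each holding the core, are shown for comparison, picked from windows without exon bases. Each reads 5′ to 3′ along the gene's strand and ends at the base before the start. Capitals mark ACGTG or GCGTG on either strand, so that CACGT is ACGTG on the opposite strand and CACGTG, the E-box read by MYC among others, is ACGTG on both. CACGTG occurred in 6.02% of all windows and, among the members, in those of Pfkfb3, Ldha, Pdk2, Slc16a1 and Hif1a. Ldha had the most core matches of any member, 5 with CACGTG counted on both strands.
Pgk1 (fell, chrX:106186850-106187099, plus strand): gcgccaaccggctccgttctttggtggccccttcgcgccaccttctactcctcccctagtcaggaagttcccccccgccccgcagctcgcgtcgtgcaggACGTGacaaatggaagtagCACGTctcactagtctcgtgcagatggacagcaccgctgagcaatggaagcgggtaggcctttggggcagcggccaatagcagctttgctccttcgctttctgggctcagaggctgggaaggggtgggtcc
Ldha (fell, chr7:46845554-46845803, plus strand): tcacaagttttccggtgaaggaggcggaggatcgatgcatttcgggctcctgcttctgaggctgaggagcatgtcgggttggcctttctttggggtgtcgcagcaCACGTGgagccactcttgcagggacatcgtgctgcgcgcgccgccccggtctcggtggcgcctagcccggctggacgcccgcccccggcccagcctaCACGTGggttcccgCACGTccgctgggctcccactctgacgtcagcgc
Pdk2 (rose, chr11:95041372-95041621, minus strand): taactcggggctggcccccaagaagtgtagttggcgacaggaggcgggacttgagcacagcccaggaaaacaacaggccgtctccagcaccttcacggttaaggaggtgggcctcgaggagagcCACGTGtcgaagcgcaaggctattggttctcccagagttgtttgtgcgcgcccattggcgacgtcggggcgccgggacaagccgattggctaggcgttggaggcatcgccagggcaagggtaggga
Egln3 (rose, chr12:54203875-54204124, minus strand): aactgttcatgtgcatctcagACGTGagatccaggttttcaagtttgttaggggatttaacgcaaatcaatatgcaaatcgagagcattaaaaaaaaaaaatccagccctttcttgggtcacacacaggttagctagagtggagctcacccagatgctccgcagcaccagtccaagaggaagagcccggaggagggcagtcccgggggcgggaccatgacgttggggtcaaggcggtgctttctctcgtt

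The rest of the pathway was read from 8 further gene lists, with 47.4% to 81.2% of the tested genes of a list called. Over all genes tested, 47.2% were called, 23.6% in each direction, and 62.4% of those averaging 50 CPM or more. Of the other glucose transport, glycolysis and gluconeogenesis genes, 9 rose and 2 fell of 18 tested (61.1% called), and 14 of the 32 listed were too low to test. The muscle enolase Eno3 rose from 53.43 ± 1.30 to 82.18 ± 2.25 CPM (SD, n = 4), the same direction as Eno2 and opposite to Eno1. The other 3 genes of lowest p were transporters that rose from low levels: Slc2a13, a proton-coupled inositol carrier, from 0.3445 ± 0.155 to 4.083 ± 0.650 CPM, Slc2a6 from 1.205 ± 0.355 to 4.751 ± 0.516 CPM and Slc2a10 from 2.122 ± 0.186 to 4.948 ± 0.548 CPM. Within the per-length sum of Eno1, Eno2, Eno3 and Eno1b, Eno3 was 2.43% ± 0.0523 in the knockout and 1.32% ± 0.0512 in the WT. Eno1 was 96.6% ± 0.132 and 97.9% ± 0.0900. Eno4, at 0.290 and 0.0957 CPM, was left out of this sum.

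Of the other pyruvate and lactate genes, 4 rose and 7 fell of 16 tested (68.8% called), with 2 higher when knockout replicate 2 or 4 or WT replicate 2 or 4 was left out. Pdhx, the binding protein that anchors a subunit of pyruvate dehydrogenase, fell by 1.03 on the log2 scale, and by 0.45 with the local shift of its chromosome taken out (edgeR adjusted p = 3.56e-05). The alanine transaminase Gpt2 fell by 0.67 and the pyruvate dehydrogenase phosphatase Pdp2 by 0.52. Bsg, the chaperone that carries MCT1 and MCT4 to the cell surface, rose from 395.5 ± 10.9 to 473.9 ± 17.7 CPM while both transporters fell.

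In the tricarboxylic acid cycle and malate-aspartate shuttle, 2 genes rose and 7 fell of 19 (47.4% called, near the background), with 1 higher when any library but knockout replicate 2 or WT replicate 3 was left out. Idh3b, a subunit of isocitrate dehydrogenase, fell from 190.3 ± 4.87 to 126.5 ± 5.31 CPM, but with the local shift taken out its change was -0.04 (edgeR adjusted p = 0.505). Its partner Idh3g fell by 0.22 on the log2 scale, the succinyl-CoA ligase subunit Suclg1 by 0.31 and the aspartate transaminase Got1 by 0.24. Of 8 pentose phosphate genes, 1 rose and 4 fell (62.5% called). G6pdx, the entry enzyme of the cytosolic branch, fell from 185.4 ± 2.92 to 128.4 ± 1.92 CPM, and the next dehydrogenase Pgd and the transketolase Tkt fell by 0.45 and 0.27. H6pd, which runs the same first steps inside the endoplasmic reticulum, rose from 31.78 ± 1.85 to 59.32 ± 3.24 CPM.

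Of 16 glycogen genes tested, 7 rose and 4 fell (68.8% called). The lysosomal glucosidase Gaa went from 113.7 ± 6.32 to 167.4 ± 8.91 CPM, and the phosphorylase kinase subunits Phkb and Phka2 rose by 0.55 and 0.53 on the log2 scale. The count of 4 lower became 1 or 2 when any library but knockout replicate 2 or WT replicate 3 was left out.

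Of the other HIF subunits and oxygen-sensing genes, 6 rose and 7 fell of 16 tested (81.2% called), with 3 higher without knockout replicate 1, 3 or 4. Arnt, the constant partner of HIF-1, fell from 84.90 ± 4.30 to 67.08 ± 2.10 CPM, and Hif1an, the asparagine hydroxylase that blocks HIF-1 activity, from 68.97 ± 2.07 to 53.84 ± 1.38 CPM. The coactivator Ep300 fell by 0.54 on the log2 scale with a wide spread in the knockout (176.8 ± 28.5 against 257.0 ± 3.74 CPM). Os9, a lectin of the endoplasmic reticulum, rose by 0.41. Of the HIF targets outside glucose metabolism, 8 rose and 9 fell of 25 tested (68.0% called). The collagen lysyl hydroxylases Plod2 and Plod1 rose by 0.68 and 0.62 on the log2 scale, and Fam162a by 0.50. Of 15 regulators of glycolytic genes tested, 6 rose and 3 fell (60.0% called), with 1 lower without knockout replicate 1, 3 or 4 or WT replicate 1. Txnip, which restrains glucose uptake, rose from 50.64 ± 2.04 to 66.58 ± 3.86 CPM. Ppargc1a, a coactivator of oxidative genes, rose from 0.1646 ± 0.119 to 0.9607 ± 0.186 CPM. The rises of the kinase subunit Prkaa1 (0.44) and of the mTOR activator Rheb (0.35) were 0.03 (edgeR adjusted p = 0.661) and 0.01 (edgeR adjusted p = 0.889) with their local shifts taken out.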

How the data were processed

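Poly-A RNA of 8 Hepa 1-6 libraries was analysed, 4 a group. Per the labels' protocols, RNA was taken up in TRIzol and libraries came from a SMARTer kit. HISAT2, Trimmomatic, FastQC and GRCm38.p6 appear in the submitters' processing notes. Which tool counted, with which annotation and strand setting, is not given in the sources used here. Expected counts per transcript, whole numbers and not normalized, were deposited by the authors. Of 115220 transcripts, 114332 (99.23%) matched GENCODE mouse release 21 and were summed per gene; the design had assumed counts per gene. Reads of near-identical, overlapping or antisense genes may have gone to either gene.

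The main test was edgeR 4.0.16 (quasi-likelihood F test, TMM, filterByExpr, two-sided, Benjamini-Hochberg over all 15840 genes tested), in R 4.3.3. "Rose", "fell" and "called" mean an adjusted p under 0.05. CPM are TMM-scaled; TPM were computed from the counts and transcript lengths. The local shift is the median log2 change of genes with at least 5 CPM on average within 5 Mb. Near copies were sought with blastn 2.17.0 (at least 90% identity over 500 bases). Members, lists, limits and tests were chosen with earlier results of these data known. All members are named, with full values for those with a called log2 change of at least 0.5 and for 7 core genes, and up to 4 genes of lowest p per pathway list. Of the genes this rule selects, 2 are not reported here. Alternatives were DESeq2 1.42.0, limma-voom (limma 3.58.1), other scalings and filters, a replicate block, a test against 1.5-fold, the local shift, coding transcripts and each library left out. The near copies, the transcript tests and the enolase family were added after seeing the data.

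The gene tests and both transcript tests were tested on simulated data. The gene tests found most of the changes put in, and a larger share of their calls was false than the threshold of 0.05 allows. The transcript tests, diffSpliceDGE and limma on log2 odds (mean of at least 100 counts, pseudocount 0.5), missed most of theirs, and most diffSpliceDGE calls there were false. Limits from counts cover counting error only.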

Additional observations from a re-analysis of the deposited data

Results flagged for a closer look

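In 64 groups of 4 libraries, 1 library stood apart from the other 3 by Dixon's test, which chance alone does in about 1 of 20 groups. Pgam1 in WT replicate 1 had 649.3 CPM against 698.2 to 706.9 CPM in the other WT libraries. It was still above all 4 knockout libraries.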

How the results depend on the processing

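DESeq2, limma-voom, RLE factors, the filter of 1 read and the near copies changed no member's call or direction. Nor did coding transcripts alone for the 31 members still tested, but Slc2a3, called lower, dropped out of the test. A mean of 5 CPM left 29 members to test. Library sizes alone moved 5 members out of the calls and 3 in, left 13 higher and 9 lower, and turned the split of all calls from 50.1% to 62.4% higher (4543 against 2742 genes); upper quartile factors moved 3 out. With the local shift taken out, Gpi1 (adjusted p = 0.101) and Pgk1 (adjusted p = 0.0854) left the calls, Hk1 entered them (adjusted p = 0.046) and Pdk1 turned to 0.087. Against 1.5-fold, 1656 genes were called, with 1 member higher and 0 lower. In the lists that test left, as higher and lower, 3 and 0 for other glycolysis genes, 0 and 1 for other pyruvate genes, 0 and 0 for the tricarboxylic acid cycle, 0 lower for pentose phosphate, 0 and 0 for glycogen, 1 and 0 for oxygen sensing, 0 and 0 for HIF targets and 1 and 0 for regulators.

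Other counts that moved over 1.5 times were other glycolysis genes higher (5 at a mean of 5 CPM), other pyruvate genes higher (2 with 1 read), tricarboxylic acid cycle genes higher (1 with 1 read), pentose phosphate genes higher (2 with library sizes), regulators lower (1 with library sizes, upper quartile factors or 1 read), and glycogen genes lower (1 with library sizes or upper quartile factors, 2 with either filter, the local shift or coding transcripts). The cause was not tested.

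Leaving out a library gave 8 to 10 members higher, 14 to 15 lower and 6863 to 7659 genes called. The counts with wider ranges were other pyruvate genes higher (2 to 4), tricarboxylic acid cycle genes higher (1 to 2), glycogen genes lower (1 to 4), oxygen-sensing genes higher (3 to 6) and regulators lower (1 to 3). Pdk3, not called, ranged from -0.048 to 0.059, and the log2 odds of Slc16a3 in its pair from -0.154 to 0.103.

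Pkm-202 passed with limma on log2 odds (1.10, adjusted p = 0.0296) and not with diffSpliceDGE. Replicate numbers did not pair the samples: same-numbered knockout and WT libraries correlated at -0.02 to 0.08 in their deviations. With the number as a replicate block, 1 member (Hk2, -0.13, adjusted p = 0.046) entered the calls; no other member's call changed. Depth limits Slc2a3, Pdk2 and Car9, the members of fewest counts.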

Other observations

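Genes known to act on the choice between the 2 Pkm exons were looked up after the Pkm counts had been seen. Ptbp1, the repressor of the M1 exon, fell from 846.7 ± 29.9 to 659.2 ± 25.9 CPM (SD, n = 4; log2 -0.36 ± 0.042, edgeR adjusted p = 1.13e-05), without overlap. Its partner Hnrnpa1 rose from 1000 ± 29.1 to 1079 ± 42.1 CPM, with overlap and by 0.11 on the log2 scale. Hnrnpa2b1, another repressor, was at 1070 ± 51.2 CPM in the knockout and 1136 ± 32.95 CPM in the WT, and Srsf3, which favours the M2 exon, at 540.6 ± 34.6 and 542.3 ± 33.1 CPM. Neither was called. Of all genes with at least 50 CPM, 62.4% were called, and no link between these genes and the Pkm counts was tested.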
